A study of Homo sapiens with 6 samples.

Results

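The S100 and annexin genes encode families of mostly calcium-binding proteins that act at membranes and the cytoskeleton. They are described here in PANC-1 cells in which RRM2 was knocked down. Members were chosen by gene symbol alone, as the protein-coding genes named S100A with a number, S100B, S100G, S100P and S100Z, or ANXA with a number. This gave 33 of the 42902 genes in the count table, 20 of the S100 family and 13 annexins. Pseudogenes, the S100P-binding protein gene S100PBP and the annexin receptor gene ANXA2R are not members. PANC-1 is an established human cell line from a pancreatic ductal carcinoma. Of the 6 RNA sequencing libraries, 3 are of cells labelled wild type that carry a non-targeting hairpin (shNC). The other 3 are of cells in which a hairpin targets RRM2 (shRRM2), the small subunit of ribonucleotide reductase. The labels give neither the number of hairpins or cell clones behind a group nor whether its libraries came from separate cultures, so the p-values reflect a spread among libraries that may be technical alone.

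S100 proteins are short EF-hand proteins that mostly work as dimers. On binding calcium they expose a surface that holds a target protein, and some are also secreted and act on receptors such as RAGE (AGER) and TLR4. Annexins carry repeats that bind acidic phospholipids when calcium rises, and they serve in membrane trafficking, exocytosis and the repair of membrane wounds. The families meet in complexes: S100A10 joins ANXA2, S100A11 joins ANXA1, and S100A6 can join ANXA11. Several members, among them S100P, S100A4, S100A6, ANXA1 and ANXA2, are known as abundant transcripts of pancreatic carcinoma.

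The libraries held 16606947 to 23300433 counts, so that 1 CPM (1 count per 1000000 counts) rests on 16.6 to 23.3 counts before scaling. RRM2 had 3567, 4435 and 3342 counts in the control libraries and 716, 808 and 716 in the knockdown, a fall from 199.7 ± 6.38 to 40.2 ± 0.607 CPM (SD, n = 3 each). Of the ductal markers, KRT7, KRT8 and KRT18 were abundant (707 ± 22.9, 1081 ± 15.3 and 787 ± 18.1 CPM in shNC), while KRT19, EPCAM and CFTR had 22, 53 and 24 counts over all 6 libraries. All 6 ductal markers summed to 2516 to 2611 CPM in shNC and 3349 to 3410 CPM in shRRM2. Of the 4 measured, 3 rose and 1 fell, against 26.0% called higher and 26.1% lower among all tested genes. The fall was that of KRT7, at −0.07 on the log2 scale with overlapping groups. In such bulk libraries fewer cells of a kind and less RNA per cell cannot be told apart. Markers of other cells that make S100 proteins were low, apart from the keratinocyte marker KRT10. The 8 myeloid markers summed to 1.52 to 2.07 CPM in shNC and 3.85 to 5.19 CPM in shRRM2, mostly from CSF1R, and CSF3R and MPO had 0 counts. The 5 glial and melanocyte markers summed to 1.43 to 1.82 and 2.06 to 3.65 CPM, and the 5 fibroblast markers to 0.457 to 0.547 and 0.735 to 1.26 CPM. The 5 keratinocyte markers summed to 62.7 to 77.9 and 54.5 to 66.4 CPM, nearly all from KRT10, with KRT1 at 0. The part of other cells in the results below was not tested. One library, shRRM2 replicate 2, held more short transcripts than the other knockdown libraries, and each S100 or annexin call that depends on it is given with and without it. Without it, 5 in place of 6 partner genes and 8 in place of 9 other EF-hand genes of the lists below fell, and 1 in place of 0 membrane repair genes.

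The sequences just upstream of the start sites are shown for the members the results turn on: S100P, ANXA6 and ANXA1 for the large rises of abundant members, and S100A10 and ANXA2 as the pair whose subunits moved in opposite directions. Each run is the 250 bases before the first start that RefSeq lists (GRCh38.p14), read 5′ to 3′ on the strand of the gene. Capitals mark matches on either strand to 5 motifs. The TATA box was searched as TATAAA, the GC box as GGGCGG and the CCAAT box by those letters. The AP-1 site was searched as TGANTCA and the TEAD site as GGAATG. These matches describe letters and are not shown to be bound. The 3 GC boxes before ANXA2 overlap one another.
S100P, chr4:6693628-6693877, plus strand: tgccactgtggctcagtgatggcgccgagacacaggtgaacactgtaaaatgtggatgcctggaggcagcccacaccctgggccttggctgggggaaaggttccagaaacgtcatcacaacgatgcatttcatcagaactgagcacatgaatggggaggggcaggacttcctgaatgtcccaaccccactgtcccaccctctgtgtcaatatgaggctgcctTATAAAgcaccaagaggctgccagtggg
S100A10, chr1:151993860-151994109, minus strand: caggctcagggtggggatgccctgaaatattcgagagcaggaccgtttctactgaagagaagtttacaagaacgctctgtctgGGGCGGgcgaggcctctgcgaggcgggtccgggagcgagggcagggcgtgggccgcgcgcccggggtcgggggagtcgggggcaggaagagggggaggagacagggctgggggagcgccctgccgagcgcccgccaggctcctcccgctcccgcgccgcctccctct
ANXA6, chr5:151157780-151158029, minus strand: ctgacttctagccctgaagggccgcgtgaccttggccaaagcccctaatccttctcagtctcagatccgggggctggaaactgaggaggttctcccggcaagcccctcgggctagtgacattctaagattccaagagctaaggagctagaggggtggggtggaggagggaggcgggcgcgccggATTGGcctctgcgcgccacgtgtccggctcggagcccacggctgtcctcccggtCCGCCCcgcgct
ANXA1, chr9:73151615-73151864, plus strand: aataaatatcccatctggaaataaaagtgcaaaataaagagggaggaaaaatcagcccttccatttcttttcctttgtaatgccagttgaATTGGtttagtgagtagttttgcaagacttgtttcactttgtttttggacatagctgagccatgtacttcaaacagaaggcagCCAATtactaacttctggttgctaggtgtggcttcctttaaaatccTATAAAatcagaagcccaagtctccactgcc
ANXA2, chr15:60397987-60398236, minus strand: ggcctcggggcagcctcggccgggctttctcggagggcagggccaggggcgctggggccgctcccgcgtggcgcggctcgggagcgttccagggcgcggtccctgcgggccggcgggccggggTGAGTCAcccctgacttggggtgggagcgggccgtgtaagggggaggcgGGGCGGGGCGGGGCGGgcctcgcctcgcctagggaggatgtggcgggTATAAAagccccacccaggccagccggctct

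S100P, ANXA1 and ANXA2 carry a TATA box that begins 28, 31 and 31 bases before the start, whereas the windows of S100A10 and ANXA6 hold GC boxes and no TATA box. Of 27305 promoter windows of this length, 11.1% hold a TATA box, 42.3% a GC box, 33.0% a CCAAT box, 6.60% an AP-1 site and 11.9% a TEAD site. The AP-1 match of ANXA2 begins 127 bases before its start. A window was listed for 30 of the 33 members. A TATA box was found in 8 of 19 S100 windows and 4 of 11 annexin windows, a GC box in 6 and 6, a CCAAT box in 4 and 3, an AP-1 site in 3 and 1, and a TEAD site in 1 and 0.

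Most measured members were higher in the knockdown. Of the 20 S100 genes, 12 passed the filter on low counts, and of these 8 rose, 0 fell and 4 did not pass the test (edgeR's quasi-likelihood test with Benjamini-Hochberg adjustment over all 15866 tested genes, threshold 0.05). Of the 13 annexins, 11 passed the filter, and 9 rose, 1 fell and 1 did not pass. ANXA8 and its near-identical copy ANXA8L1 are both among those that rose, and with such copies summed 8 annexins rose. Among all tested genes 52.1% were called, 26.0% higher and 26.1% lower. The median log2 fold change, shRRM2 over shNC, was 0.37 for the 12 S100 genes and 0.45 for the 11 annexins, against −0.01 for all tested genes. The changes were moderate, between −0.14 and 0.95 on the log2 scale. Most measured members are abundant, which makes small changes easier to call. Among the 10225 genes with a mean of at least 10 CPM, 28.3% were called higher and 34.3% lower, with a median of −0.04, while 7 of 9 S100 genes and 8 of 10 annexins at that level rose and 0 and 1 fell. This level was chosen after the data were seen. S100 transcripts are mostly short. The 207 genes of that level whose longest transcript is under 1 kb had a median of −0.05, with 24.6% called higher and 36.7% lower. S100A10, S100A16 and S100P have a longest transcript of 1 to 2 kb, and S100A13 one of 2184 bases. The 1263 genes of 1 to 2 kb had a median of −0.05, with 26.05% called higher and 35.4% lower. For the 3671 genes of 2 to 4 kb these were −0.02, 29.5% and 33.9%. The part of length in the fold changes was not tested.

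**Figure D1:**
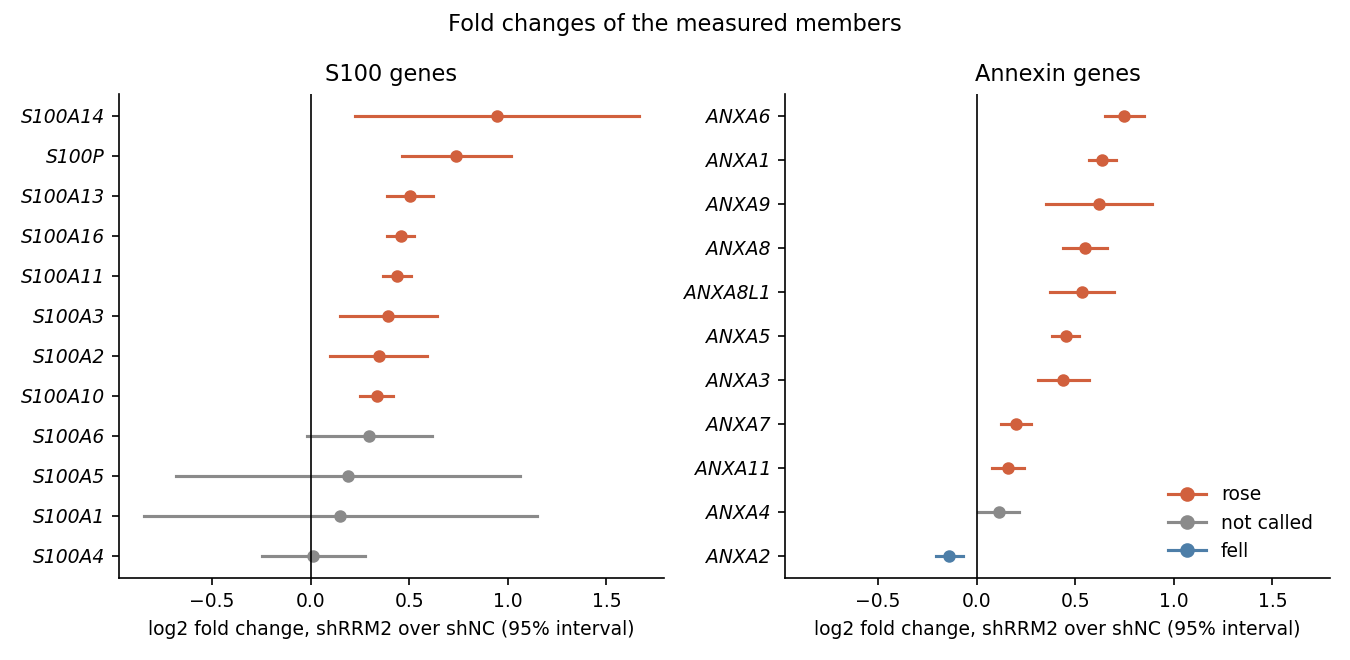
Log2 fold changes of the 12 measured S100 genes and 11 measured annexins, shRRM2 over shNC, with 95% intervals from the quasi-likelihood fit. Points are coloured by whether the gene rose, fell or was not called at an adjusted p of 0.05; ANXA2 at −0.14 is the member that fell.

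The CPM ranges of the groups did not overlap for 8 of the 12 S100 genes, all higher in shRRM2, and for all 11 measured annexins, 10 higher and 1 lower. Over all tested genes this was so for 29.2% upward and 28.6% downward. Summed over its members, the S100 family took 1429, 1399 and 1334 CPM in the shNC libraries and 1634, 1891 and 1671 CPM in the shRRM2 libraries. The annexins took 1535, 1512 and 1484 CPM in shNC and 1792, 1905 and 1796 CPM in shRRM2. The ratio of the group means was 1.25 and 1.21. The sums are led by S100A4, S100A11, S100A6, S100A16 and S100A10, and by ANXA2, ANXA5, ANXA1, ANXA11 and ANXA7.

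**Figure D2:**
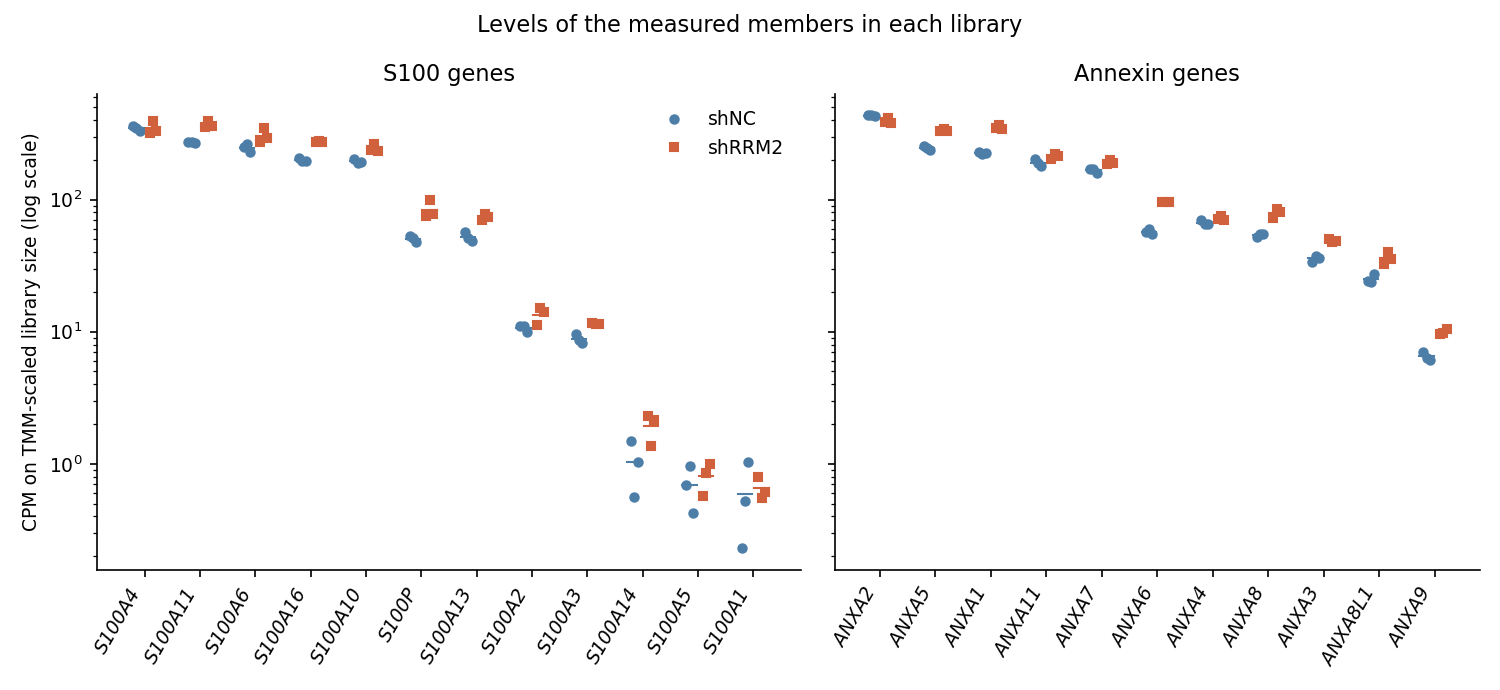
CPM of the measured members in each library on a log axis, for S100 genes and annexins in order of mean level. Circles are shNC and squares shRRM2 libraries, and short lines are group means; S100A14, S100A5 and S100A1 lie near 1 CPM, far below the other S100 genes.

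S100P, an extracellular and cytoplasmic S100 protein that binds ezrin and RAGE, had the largest rise among the abundant S100 genes. It lies outside the S100 cluster, on chromosome 4 (6693878 to 6697170, GRCh38). Its level was 53.0, 50.8 and 47.6 CPM in shNC and 75.1, 99.5 and 77.9 CPM in shRRM2, so every knockdown library was above every control and replicate 2 was highest. The rise was 0.74 in log2 units, with an SE of 0.116 and an adjusted p of 0.00147. Without shRRM2 replicate 2 it was 0.60 (adjusted p = 2.97e-12). It overlaps no other gene of the table.

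S100A13, S100A16 and S100A11 rose by similar amounts. S100A13, which takes part in the release of FGF1, was at 57.2, 51.0 and 48.8 CPM in shNC and 70.4, 77.6 and 74.2 CPM in shRRM2 (log2 fold change 0.50, SE 0.0578, adjusted p = 5.54e-09). S100A16, an EF-hand protein with a degenerate first calcium site, was at 206, 196 and 197 CPM against 272, 278 and 273 CPM (0.46, SE 0.0339, adjusted p = 2.36e-13). In both genes the lowest knockdown library lay well above the highest control. S100A11, the S100 partner of ANXA1, was at 276, 275 and 268 CPM against 358, 394 and 359 CPM (0.44, SE 0.0352, adjusted p = 1.59e-12). S100A10, the light chain of the ANXA2 complex, which does not bind calcium, was at 202, 191 and 193 CPM against 237.5, 266 and 235.5 CPM (0.34, SE 0.0408, adjusted p = 6.26e-08). The S100A13 span contains S100A1 on the opposite strand and runs 296 bases into CHTOP, so that reads there cannot be assigned without the strand setting, which is not given in the sources used here. CHTOP itself was lower by a log2 fold change of −0.54.

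The scarcer S100 genes rose with less certainty. S100A3, a cysteine-rich protein best known from hair, was at 9.54, 8.59 and 8.20 CPM in shNC and 11.6, 11.5 and 11.5 CPM in shRRM2 (0.39, SE 0.122, adjusted p = 0.00676). The lncRNA gene LOC101928034 covers all 1930 bases of S100A3 and held 98 to 245 counts per library, beside 135 to 228 for S100A3, with a log2 fold change of 0.68, so that the S100A3 count is uncertain. S100A2, an epithelial S100 protein regulated by p53 family proteins, was at 10.97, 10.97 and 9.90 CPM against 11.2, 15.2 and 14.0 CPM (0.35, SE 0.121, adjusted p = 0.0160). Leaving out shRRM2 replicate 2 gave 0.25 with an adjusted p of 0.111, and leaving out shNC replicate 3 gave 0.30 with 0.0666, neither past the threshold. S100A14, an epithelial family member, was counted 26, 13 and 17 times in the control libraries and 41, 27 and 39 times in the knockdown. Its log2 fold change of 0.95 was the largest of the family and the least precise of those called (SE 0.353, adjusted p = 0.0245), and the groups overlapped in CPM. The call was lost when shNC replicate 2 was left out, at 0.61 with an adjusted p of 0.173. It was also lost without shRRM2 replicate 1 or replicate 3, at 0.80 and 0.87 with adjusted p of 0.108 and 0.0731.

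S100A4 and S100A6, abundant neighbours on chromosome 1, were not called. S100A4, also known as metastasin or FSP1 and often used as a mesenchymal marker, was the S100 gene with the highest CPM in shNC. It stood at 361, 349 and 329 CPM in shNC and 322, 397 and 329.7 CPM in shRRM2, so shRRM2 replicate 1 lay below the controls, replicate 3 among them and replicate 2 above them (log2 fold change 0.01, 95% interval −0.25 to 0.28, adjusted p = 0.924). Without shRRM2 replicate 2 its value turned to −0.08 and passed (adjusted p = 0.0382). S100A6 (calcyclin) was at 249.6, 263 and 229.7 CPM in shNC and 273, 349 and 292 CPM in shRRM2. Its groups did not overlap, but the wide interval of −0.02 to 0.62 included 0 (0.30, SE 0.117, adjusted p = 0.102). Without shRRM2 replicate 2 it was smaller and passed (0.19, adjusted p = 4.39e-05), as it did without shRRM2 replicate 1 (0.37, adjusted p = 0.0392) and with DESeq2 (0.30, adjusted p = 0.0268). S100A5 had 7 to 22 counts per library and S100A1 4 to 17, with adjusted p of 0.739 and 0.817 and intervals from −0.68 to 1.06 and from −0.84 to 1.15.

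Short transcripts were higher in 1 knockdown library. In shRRM2 replicate 2, the 9 S100 genes with a mean of at least 10 CPM stood at a median of 0.17 on the log2 scale above the mean of replicates 1 and 3. The 207 genes of that level with a longest transcript under 1 kb stood at 0.12, the 1263 of 1 to 2 kb at 0.05, and the 4641 of 4 kb or more at −0.02. S100P, S100A6, S100A4 and S100A2 stood higher, at 0.38, 0.30, 0.29 and 0.28, whereas S100A16 and S100A3 were at 0.03 and −0.01, so the values of the S100 genes were in no order of length. The 10 annexins of that level, with longer transcripts, stood at a median of 0.09. The part of this difference in the fold changes was not tested beyond the values without the library.

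**Figure D3:**
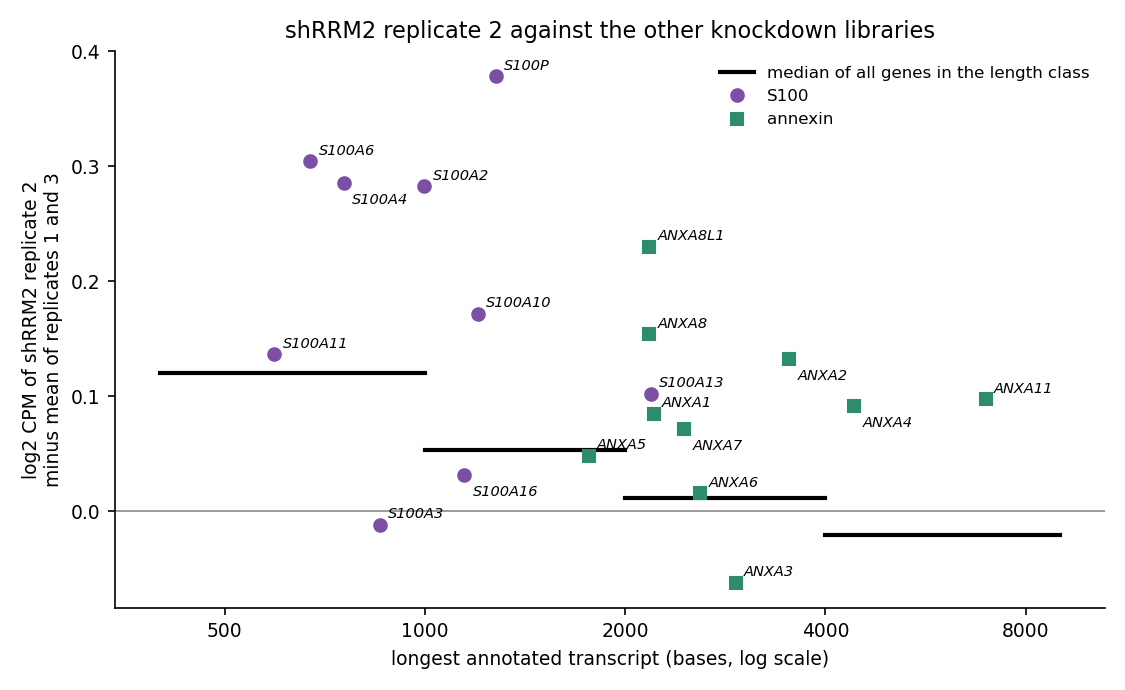
Difference in log2 CPM between shRRM2 replicate 2 and the mean of replicates 1 and 3, against the longest annotated transcript, for the 9 S100 genes and 10 annexins with a mean of at least 10 CPM. Black lines are the medians of all genes of that level in 4 length classes, from 0.12 under 1 kb to −0.02 at 4 kb or more.

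The remaining S100 genes had at most 1 count. S100A7, S100A7A, S100A8, S100A12, S100B, S100G and S100Z had 0 counts in all 6 libraries, and S100A9 had 1 count in shNC replicate 3. A count of 0 allows up to 0.129 to 0.181 CPM in a library at 3 counts, on unscaled library totals and for counting error only. These include the calprotectin genes S100A8 and S100A9 and the calgranulin S100A12 of myeloid cells, the psoriasin genes of keratinocytes, and S100B of glia. ANXA13, the annexin of intestinal and kidney epithelium, had 0 counts too, and ANXA10, a gastric annexin, was below the filter with 4, 0 and 1 counts in the controls against 4, 6 and 4.

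Most measured S100 genes of the chromosome 1 cluster rose, while the genes around them moved both ways. The 16 S100 genes there lie between positions 151982915 and 153634361 (GRCh38), with the epidermal differentiation genes between S100A11 and S100A9. Of the 11 that were measured, 7 rose and 0 fell. Leaving out the listed epidermal differentiation genes, 46 other protein-coding genes lie between the S100 genes or within 250 kb of the ends. Of these 11 were measured, and 3 rose and 5 fell (median −0.15), against 26.0% higher and 26.1% lower among all tested genes. THEM4, an acyl-CoA thioesterase gene next to S100A10, was lower at −0.78 (adjusted p = 1.25e-13), and CHTOP, a chromatin and RNA export factor next to S100A1, at −0.54 (adjusted p = 6.52e-13). TDRKH rose by 0.35, and NPR1, a natriuretic peptide receptor, was lower at −0.31. None of the 15 listed epidermal differentiation genes found in the table, such as the filaggrin, involucrin and loricrin genes, passed the filter, and 13 had 0 counts. The 46 other genes hold more of this kind that were not listed, among them the LCE genes and SPRR4, which did not pass either. A test of S100 genes against their neighbours was not made.

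**Figure D4:**
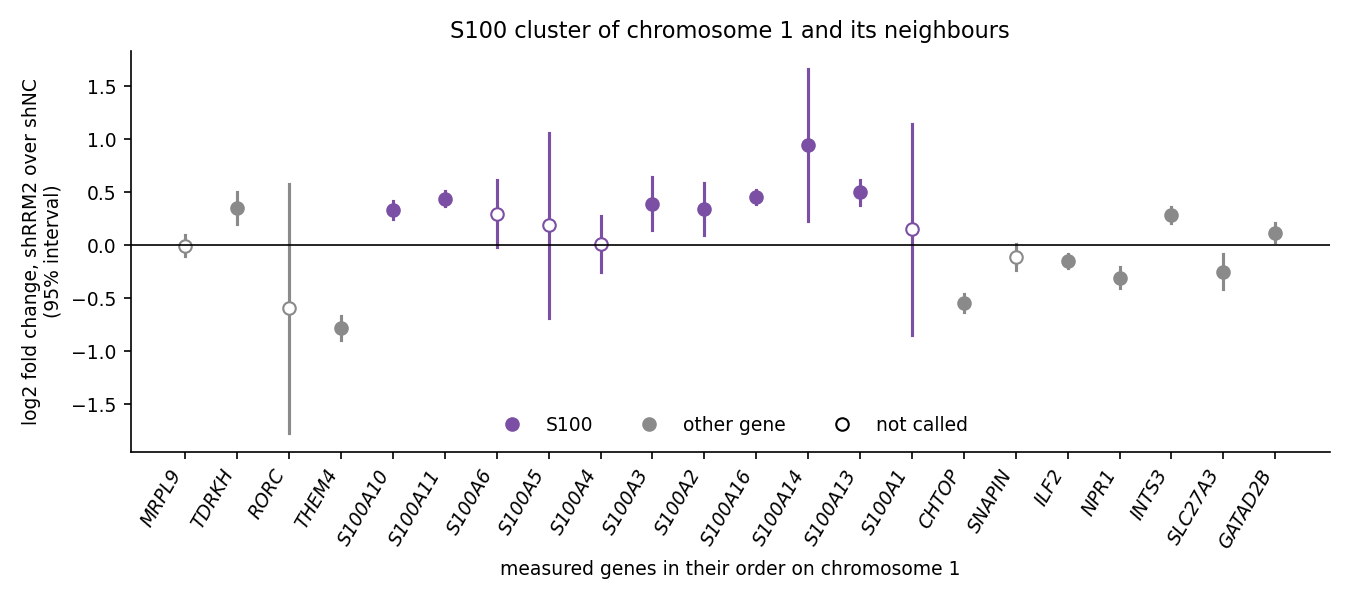
Log2 fold changes with 95% intervals of the 22 measured genes at the S100 cluster of chromosome 1, in chromosome order without distances. Purple points are S100 genes and grey points other genes, with open points where the adjusted p was not below 0.05; the 2 genes with the lowest called values, THEM4 and CHTOP, flank the S100 genes.

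Among the annexins, ANXA6 and ANXA1 rose most. ANXA6, the annexin with 2 core domains, which takes part in endocytosis and cholesterol transport, lies on chromosome 5 (151100706 to 151157779). It was at 56.9, 59.5 and 54.8 CPM in shNC and 96.0, 96.7 and 95.3 CPM in shRRM2, with an SD of 0.711 among the knockdown libraries (0.75, SE 0.0488, adjusted p = 1.06e-14). ANXA1 (lipocortin), the glucocorticoid-induced annexin that acts on formyl peptide receptors, lies on chromosome 9 (73151865 to 73170393). Its level was 229.5, 223 and 227 CPM in shNC and 349, 366 and 341 CPM in shRRM2 (0.64, SE 0.0335, adjusted p = 4.49e-17). Both groups of both genes were far apart compared with the spread within a group. ANXA5, the phosphatidylserine-binding annexin used as an apoptosis stain, was at 253, 245 and 239.9 CPM against 334, 344 and 331 CPM (0.45, SE 0.0329, adjusted p = 1.60e-13).

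ANXA3, ANXA9 and the ANXA8 copies rose as well. ANXA3 was at 34.0, 37.6 and 36.4 CPM in shNC and 50.8, 47.5 and 48.5 CPM in shRRM2 (0.44, SE 0.0630, adjusted p = 4.28e-07). ANXA9, an atypical annexin that binds no calcium through its core, was the scarcest measured, at 6.13 to 7.03 CPM against 9.67 to 10.6 CPM (0.62, SE 0.133, adjusted p = 0.000186). The ANXA9 span shares 1548 bases with the lncRNA gene LOC105371438. ANXA8 and ANXA8L1 are near-identical copies on chromosome 10, so reads may have been divided between them. The annotated span of ANXA8 also overlaps AGAP9, SYT15B, FAM25G and other genes. How reads in these overlaps were counted is not given in the sources used here. ANXA8 was at 52.3, 55.3 and 54.7 CPM against 72.5, 84.8 and 80.2 CPM (0.55, SE 0.0559), and ANXA8L1 at 24.1, 23.8 and 27.4 CPM against 32.6, 40.1 and 35.8 CPM (0.53, SE 0.0803). The ratio of ANXA8L1 to ANXA8 was 0.464 ± 0.0356 in shNC and 0.457 ± 0.0141 in shRRM2 (SD, n = 3 each; two-sided exact permutation p = 0.8). The counts of both copies together were 76.3, 79.1 and 82.2 CPM in shNC and 105.1, 125 and 116 CPM in shRRM2, a rise of 0.54 (adjusted p = 4.03e-10).

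ANXA7, ANXA11 and ANXA4 moved little. ANXA7 (synexin) was at 171.5, 170.2 and 160.6 CPM in shNC and 187.7, 198.8 and 190.7 CPM in shRRM2 (0.20, SE 0.0373, adjusted p = 2.95e-05). ANXA11, a partner of S100A6 and of the calcium sensor PDCD6, was at 202.2, 189 and 181 CPM against 202.4, 223 and 214 CPM (0.16, SE 0.0402, adjusted p = 0.00119), so its groups only just failed to overlap. ANXA4 was at 69.9, 65.9 and 65.0 CPM against 71.2, 75.4 and 70.3 CPM and did not pass (0.11, 95% interval 0.01 to 0.22, adjusted p = 0.0661). It passed with library size alone (0.15, adjusted p = 0.0131), and with 1 CPM in 3 libraries as filter, without shNC replicate 1 and without shRRM2 replicate 3, at adjusted p of 0.0436, 0.0441 and 0.0431.

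ANXA2, the heavy chain of the S100A10 complex and a receptor for plasminogen and its activator at the cell surface, was the member that fell. It lies on chromosome 15, on the minus strand. Its level was 434, 437 and 431 CPM in shNC and 385, 418 and 378 CPM in shRRM2, and every knockdown library was below every control (log2 fold change −0.14, SE 0.0335, adjusted p = 0.000711). ANXA2P2, its processed copy on chromosome 9, had 6671, 8293 and 6289 counts in the controls against 5523, 6976 and 5760 in the knockdown, or 0.862 ± 0.0338 and 0.830 ± 0.0168 of the ANXA2 level. Reads of the parent and the copy may have been divided between them, and ANXA2P2 was lower at −0.19 (SE 0.0379, adjusted p = 0.00011). Taken with ANXA2P1, ANXA2P2 and ANXA2P3, ANXA2 was at 816, 798 and 815 CPM in shNC and 699, 771 and 698 CPM in shRRM2, a fall of 0.16 on the log2 scale (adjusted p = 8.31e-05). The size of these falls was below a log2 fold change of 0.25, and ANXA2 did not pass edgeR's test against that minimum change (glmTreat, adjusted p = 1).

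For 4 of 5 protein pairs known to bind, the ratio of their counts did not overlap between the groups. Single genes often did not either, 29.2% of all tested genes upward and 28.6% downward, and ratios of other gene pairs were not computed. S100A10 per ANXA2 count was 0.466, 0.438 and 0.448 in shNC and 0.616, 0.637 and 0.622 in shRRM2 (two-sided exact permutation p = 0.1, the smallest that 3 against 3 can give; 0.125 adjusted over the 5 pairs compared). With the pseudogene counts added to ANXA2, the ratio was 0.242 ± 0.00565 against 0.341 ± 0.00405 (SD, n = 3 each). S100A11 per ANXA1 was lower in the knockdown, at 1.05 ± 0.0256 against 1.20 ± 0.0256 in shNC (exact permutation p = 0.1, adjusted 0.125). S100A4 per MYH9, the nonmuscle myosin heavy chain that S100A4 binds, was 0.430, 0.411 and 0.407 in shNC and 0.269, 0.338 and 0.271 in shRRM2 (exact permutation p = 0.1, adjusted 0.125). MYH9 itself rose by 0.52. S100P per EZR (ezrin) was 0.187 ± 0.00512 in shNC against 0.258 ± 0.0354 in shRRM2 (exact permutation p = 0.1, adjusted 0.125), and S100A6 per ANXA11 was 1.30 ± 0.0850 against 1.43 ± 0.121, with overlapping groups (exact permutation p = 0.3). These ratios are of counts and carry no correction for length, so they compare libraries and not the amounts of the proteins' messages. AHNAK, the giant scaffold that binds the S100A10 and ANXA2 complex, was lower together with ANXA2, from 833 ± 11.5 to 734.5 ± 21.0 CPM (−0.18, adjusted p = 2.20e-06).

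**Figure D5:**
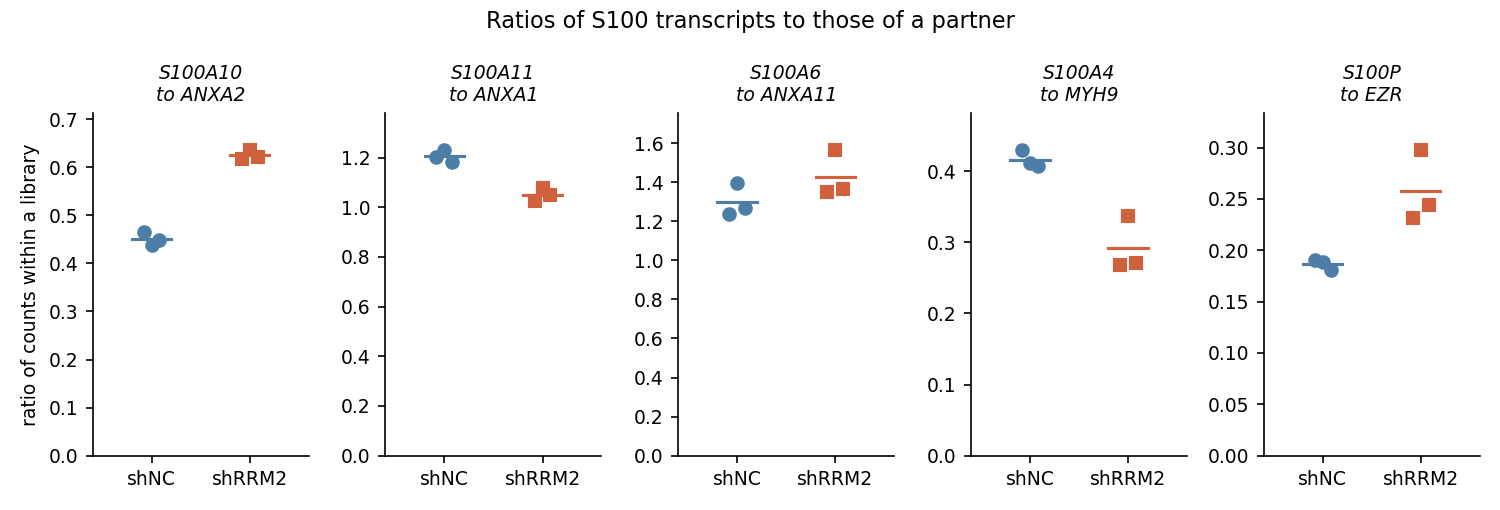
Ratio of the counts of an S100 gene to those of a partner gene within each library, for 5 pairs, on axes that start at 0. Circles are shNC and squares shRRM2, with lines at the means; S100A10 to ANXA2 stood at 0.438 to 0.466 in shNC and 0.616 to 0.637 in shRRM2.

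Compared per length by the counts given to each gene itself, S100A11 was the highest S100 gene and ANXA5 the highest annexin in both groups. This held whether the merged exons or the longest transcript gave the length. ANXA2P2 held 374 ± 12.6 CPM in shNC, beside 434 ± 2.81 CPM for ANXA2. Any ANXA2 reads counted there are left out of the ANXA2 level. The rank of ANXA2 among the annexins, and of ANXA5 above it, is therefore uncertain. In shNC, S100A11 had 401.5 and ANXA5 81.1 CPM per kb of merged exons. S100A4, S100A6, S100A10 and S100A16 followed S100A11, at 338, 255, 127 and 117.5 CPM per kb. By the longest transcript, S100A4 and S100A11 lay within 1 SD of each other in shNC, at 459 ± 21.6 and 459.6 ± 7.28 CPM per kb, and at 463 ± 54.7 and 623 ± 34.6 in shRRM2. Among the annexins, the order below ANXA5 changed with the length used: in shNC, ANXA2 ranked 4 by merged exons, at 49.2 ± 0.319 CPM per kb and within 1 SD of ANXA1 at 49.7 ± 0.671, and 2 by the longest transcript (123). ANXA1 passed ANXA2 by the longest transcript in shRRM2, at 159.5 against 112 CPM per kb, where in shNC they stood at 103 and 123.

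Of 24 partners, targets and receptors, 16 were measured, and 6 rose and 6 fell (median −0.12). Among all tested genes 26.0% were called higher and 26.1% lower. TLR4, a receptor of secreted S100 proteins, rose by 1.27 (adjusted p = 1.21e-13) from 18.5 ± 1.90 to 44.4 ± 5.08 CPM. MYH9 rose by 0.52 and KCNK3, a potassium channel that S100A10 brings to the membrane, by 0.45 (adjusted p = 0.00801). PLA2G4A, the cytosolic phospholipase that annexins restrain, was lower at −0.55 (adjusted p = 4.11e-07). The receptor AGER was at 2.84 ± 0.284 and 2.40 ± 0.746 CPM (adjusted p = 0.459). The formyl peptide receptors FPR1, FPR2 and FPR3, through which extracellular ANXA1 acts, had 1, 0 and 0 counts over all libraries.

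Genes of plasma membrane repair, in which annexins act, were mostly higher. Of 20 measured of 22, 13 rose and 0 fell, with a median of 0.27, against 26.0% higher and 26.1% lower and a median of −0.01 among all tested genes. The list, like the others, was chosen with earlier results of these data known. DYSF (dysferlin), a calcium-binding membrane protein of repair, rose by 2.31 (adjusted p = 9.82e-13), though from only 2.06 ± 0.446 to 10.2 ± 1.40 CPM. CAV1 (caveolin-1) rose by 1.27 (adjusted p = 1.24e-17), the ESCRT subunit CHMP3 by 0.97 (adjusted p = 0.00954) and the acid sphingomyelinase SMPD1 by 0.85 (adjusted p = 2.40e-11). CHMP3 stood near 1 to 2 CPM. Of the other EF-hand proteins, 21 of 25 were measured, and 6 rose and 9 fell, with a median of 0.04. The share that rose was near the 26.0% of all tested genes, and the share that fell was above their 26.1%. This difference was not tested. The counts of 6 and 9 were the same with RLE factors, DESeq2 and limma-voom. With library size alone 9 rose and 7 fell, and without shNC replicate 1 the counts were 7 and 6. CETN3 (centrin) and CALML4 were lower at −0.70 and −0.50, while the reticulum protein RCN3 rose by 0.57 and the nucleobindin NUCB2 by 0.50.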

How the data were processed

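The authors deposited whole-number read counts per NCBI Gene ID, with no scaling. The submitters' processing notes list fastp 0.23.4, featureCounts and hg38. Not given in the sources used here are the aligner, the annotation release, the strand setting and the handling of reads with several positions. Columns prefixed si were matched to the shRRM2 labels by gene name and number. Of 42902 IDs, 40120 matched RefSeq (GRCh38.p14); the rest held 1.25% of counts and stayed in the fit. Genes were kept with filterByExpr (15866), scaled with TMM and tested with edgeR 4.0.16 in R 4.3.3 (robust quasi-likelihood, group alone, two-sided, Benjamini-Hochberg over all tested genes). SE is the log2 fold change over the square root of F. CPM uses TMM-scaled totals of the kept genes. Lengths are from GENCODE 29. The fit was run on simulated counts in which far fewer genes changed than were called here. That run cannot test the scaling of these data. Totals of 16606947 to 23300433 counts set the precision. Alternatives were library size alone, RLE factors, a filter of 1 CPM in 3 libraries or none, DESeq2 1.42.0, limma-voom (limma 3.58.1), a replicate block, an adjusted p of 0.01, glmTreat at 0.25, each library left out and, added after the data were seen, summed near-identical copies. Members and lists were chosen with earlier results of these data known. All members are accounted for; from each list, up to 4 called genes of largest change are named, beside RRM2 and partners fixed by name; AGER, the FPR genes and cell markers were named after their values were seen. A few list genes counted in the totals are not reported here by name.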

Additional observations from a re-analysis of the deposited data

How the results depend on the processing

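Of the 23 measured members, 12 kept their direction and their side of the threshold under every alternative computed for them (15 each, and 14 for ANXA8L1, which has no value of its own when copies are summed), and 11 did not. Against a minimum log2 fold change of 0.25 (glmTreat), 5 S100 genes and 7 annexins rose, 0 annexins fell, and 2265 and 1667 of all genes rose and fell. The rises of S100A2, S100A3, S100A14, ANXA7 and ANXA11 did not pass that test. In that test the partner list had 2 higher and 1 lower, the other EF-hand genes 2 and 2, and the neighbours of the cluster 0 and 2. Leaving out 1 library each moved the fallen S100 genes between 0 and 1 (1 without shRRM2 replicate 2, S100A4) and the fallen repair genes between 0 and 1 (1 without shNC replicate 2 and 1 without shRRM2 replicate 2). Values not called with all libraries that changed sign with 1 library left out ranged from −0.043 to 0.524 for S100A5, from −0.084 (the called value without shRRM2 replicate 2) to 0.071 for S100A4 and from −0.214 to 0.726 for S100A1. The causes were not tested. By the longest transcript the family sums per kb were 1710 and 2113 for S100 genes and 550.4 and 699.8 for annexins in shNC and shRRM2, against 1320 and 1643, and 307.8 and 393 by merged exons. The replicate numbers are not described as pairs, and same-numbered libraries had correlated deviations of −0.01, −0.01 and −0.02. With the number as a block S100A6 passed (0.30, adjusted p = 7.66e-06), 9 S100 genes rose, and 4102 and 4142 of all genes rose and fell. No library correlated best with the library of its own number.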

Other observations

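Among the control libraries, shNC replicate 3 had its genes under 1 kb at a median of −0.08 and its S100 genes at −0.12 on the log2 scale against the mean of shNC replicates 1 and 2. Across the 19 members with a mean of at least 10 CPM, the fold change had a Spearman correlation of −0.32 with the mean level and −0.07 with the longest transcript, across genes that share libraries and are not independent replicates.

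The myeloid marker CSF1R rose by 2.02 (adjusted p = 4.61e-08), from 1.00 ± 0.179 to 4.09 ± 0.564 CPM, while PTPRC, LYZ, ITGAM and CD14 had 5, 1, 17 and 50 counts over all libraries and the myeloid S100 genes S100A8, S100A9 and S100A12 had 0, 1 and 0. The glial and melanocyte marker PMEL rose by 0.83 (adjusted p = 0.041) with S100B at 0 counts, and the keratinocyte regulator TP63 by 0.99 (adjusted p = 0.0282), while the keratinocyte marker KRT10 fell by 0.27 (adjusted p = 0.0132) and KRT5 and KRT14 had 2 and 3 counts.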
